A study of Mus musculus with 18 samples.

Results

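The 9 diacylglycerol kinase genes Dgka, Dgkb, Dgkd, Dgke, Dgkg, Dgkh, Dgki, Dgkq and Dgkz were followed by RNA-Seq in the microdissected granule cell layer of the ventral dentate gyrus. They were chosen by their symbols from the 34620 genes listed in the deposited count tables, and all 9 were among the 17421 genes with enough reads to be tested. The 6 libraries came from adult male Swiss Webster mice, an outbred strain, and address whether expression in these neurons differs in males whose mother or grandmother carried a mutant allele of the serotonin 1A receptor gene. The 2 WT libraries came from males whose mother and grandmother were WT. The 2 F1 libraries came from males whose mother and grandmother had the genotype 5HT1A-/+, and the 2 F2 libraries from males with a WT mother and a 5HT1A-/+ grandmother. By the study's methods, all these males were themselves genetically WT. F1 males came from crosses between heterozygous parents, so their fathers carried the mutant allele too, while F2 males had F1 mothers and WT fathers. WT males belonged to a lineage bred in parallel, so lineage and group cannot be told apart. Males came from different litters, and the number of males behind a library is not given in the sources used here.

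Diacylglycerol kinases add a phosphate to diacylglycerol, which turns it into phosphatidic acid. Diacylglycerol, released in membranes when phospholipase C cleaves phosphoinositides, activates protein kinase C, the RasGRP exchange factors, the chimaerins and the Munc13 proteins of the synaptic vesicle release site, and the kinases end this signal. Their product is itself a signalling lipid and is the starting point for the resynthesis of phosphoinositides. Type I kinases (Dgka, Dgkb, Dgkg) bind calcium through EF hands, type II kinases (Dgkd, Dgkh) carry a pleckstrin homology domain, the type III kinase (Dgke) prefers diacylglycerol with an arachidonoyl chain, type IV kinases (Dgki, Dgkz) carry ankyrin repeats, and the type V kinase (Dgkq) has an additional cysteine-rich domain.

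The kinases share a catalytic domain, and its glycine-rich nucleotide-binding motif is shown because it is where the coding sequences are most easily compared. Each line gives 42 bases of the coding strand of a GENCODE M1 transcript, and the capitals mark the 4 codons of the motif.
Dgka: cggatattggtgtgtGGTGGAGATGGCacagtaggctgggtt
Dgkb: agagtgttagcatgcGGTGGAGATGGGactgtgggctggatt
Dgkg: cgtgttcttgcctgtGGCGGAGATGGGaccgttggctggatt
Dgkd: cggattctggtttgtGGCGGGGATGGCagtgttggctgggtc
Dgkh: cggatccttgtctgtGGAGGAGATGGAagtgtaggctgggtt
Dgke: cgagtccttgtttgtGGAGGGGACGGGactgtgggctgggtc
Dgki: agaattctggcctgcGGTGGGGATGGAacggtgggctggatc
Dgkz: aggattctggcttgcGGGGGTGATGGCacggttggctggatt
Dgkq: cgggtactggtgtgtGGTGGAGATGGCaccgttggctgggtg
On mm9 these windows lay in exon 16 of 24 of the Dgka transcript (chr10:128165325-128165366, minus strand), exon 18 of 26 of Dgkb (chr12:38940921-38940962, plus strand), exon 17 of 25 of Dgkg (chr16:22562784-22562825, minus strand), exon 10 of 30 of Dgkd (chr1:89818179-89818220, plus strand) and exon 10 of 29 of Dgkh (chr14:79016322-79016363, minus strand). Those of Dgke (chr11:88912013-88912054, minus strand) and Dgkq (chr5:109079585-109079626, minus strand) lay in exon 5 of 12 and exon 17 of 23. The windows of Dgki (chr6:36984686-36998149, minus strand) and Dgkz (chr2:91779810-91779939, minus strand) joined exons 12 and 13 and exons 13 and 14. Compared base by base with Dgka, the windows had between 29 and 37 of 42 bases in common, with Dgkq the closest. The longest exact run shared by any of the 36 pairs of members over their whole coding transcripts was 44 bases, shorter than the 50-base reads, so that no read could match the transcripts of 2 members exactly.

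For the 3 type I genes, which included the members with the largest changes, the 200 bases before the RefSeq start are shown, with GC boxes (GGGCGG on either strand) in capitals. The sequences come from the RefSeq table on GRCm38.p6, in which all 9 members had an entry, and were placed on mm9 by exact match at chr10:128181133-128181332 (minus strand, Dgka), chr12:38606561-38606760 (plus strand, Dgkb) and chr16:22657305-22657504 (minus strand, Dgkg). None of these windows overlapped a GENCODE M1 exon.
Dgka: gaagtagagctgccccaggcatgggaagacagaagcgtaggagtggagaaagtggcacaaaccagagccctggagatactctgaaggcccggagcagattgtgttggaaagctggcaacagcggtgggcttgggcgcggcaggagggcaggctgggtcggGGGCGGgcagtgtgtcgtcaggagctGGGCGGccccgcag
Dgkb: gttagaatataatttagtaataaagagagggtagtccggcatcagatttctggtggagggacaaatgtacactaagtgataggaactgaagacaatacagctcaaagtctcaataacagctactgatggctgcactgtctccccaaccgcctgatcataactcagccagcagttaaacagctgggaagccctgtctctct
Dgkg: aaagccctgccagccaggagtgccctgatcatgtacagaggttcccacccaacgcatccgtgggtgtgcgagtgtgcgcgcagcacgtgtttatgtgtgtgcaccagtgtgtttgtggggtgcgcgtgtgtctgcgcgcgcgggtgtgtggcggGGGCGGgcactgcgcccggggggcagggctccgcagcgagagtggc
The windows of Dgka, Dgkb and Dgkg held 2, 0 and 1 GC boxes and 10, 2 and 18 CpG dinucleotides. Over 32851 RefSeq promoters the median was 5 CpG dinucleotides and the upper quartile 13, and 31.0% of promoters held a GC box. A TATA box, written TATAAA, was not among the letters of these windows and was found in 9.96% of all promoters on either strand. The same held for the CCAAT box, found in 29.3% of promoters, and for the cyclic AMP response element TGACGTCA, found in 1.47%. Dgka had 4 RefSeq starts, which the counts per gene do not separate, and the window shown is that of the start nearest to the GENCODE gene start. The other windows held 1, 20 and 11 CpG dinucleotides, and the last of these, at chr10:128174669-128174868, held TATAAA and 2 GC boxes.

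Library depth ranged from 26358165 to 33727936 reads assigned to genes. Levels are CPM values, that is counts brought to a common library size, after TMM normalization, which also evens out differences in composition. Granule cell markers were well detected, with Prox1 at 70.2 and Calb1 at 66.1 RPKM, which is CPM per kilobase of exon (mean of 6 libraries). Each of the 7 lists of markers of other cell types was detected too. Summed over the 9 oligodendrocyte markers, the level was 1101 and 2001 CPM in WT, 2984 and 2247 CPM in F1, and 1540 and 2907 CPM in F2. The 8 astrocyte markers summed to between 788 and 842 CPM in WT, 885 and 1221 CPM in F1, and 1036 and 1323 CPM in F2. The 8 granule cell markers summed to between 1307 and 1376 CPM in WT, 1127 and 1416 CPM in F1, and 1553 and 1788 CPM in F2, and their adjusted p lay between 0.0538 and 0.767 for F1 and between 0.0187 and 0.928 for F2. Of the oligodendrocyte markers, 3 were higher than in WT in F1 and 2 in F2 at an adjusted p under 0.01, and 3 and 2 of 6 markers of oligodendrocyte precursors were. Of the 9 microglia markers, 4 were higher in F2, where the list summed to 199.7 and 171 CPM beside 132 and 131 CPM in WT, and in F1 (157 and 176 CPM) the lowest adjusted p was 0.0144. Of 8 markers each, 3 interneuron and 2 astrocyte markers were higher in F2 and 1 of either list in F1, and 1 marker each of endothelial cells and of CA pyramidal and mossy cells was higher in either group. The part of these cells in the results below was not tested. Htr1a, the serotonin 1A receptor gene, was at 62.2 and 55.7 CPM in WT, 49.3 and 55.1 CPM in F1, and 68.6 and 66.6 CPM in F2, with an adjusted p of 0.332 for F1 and 0.266 for F2.

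Dgkz had the highest level of the 9 kinases per length of exon. Its mean over the 6 libraries was 63.0 RPKM with a range from 54.7 to 74.2, which did not overlap that of any other member. Dgkd (mean 22.4, range 19.2 to 24.5 RPKM), Dgkb (20.4, 16.2 to 27.1 RPKM) and Dgkg (16.4, 11.8 to 23.0 RPKM) followed, with ranges that overlapped from each to the next. A gap without overlap separated Dgkg from Dgke, at 9.86 RPKM with a range from 8.15 to 11.4. Dgka (mean 7.65, range 4.37 to 11.0 RPKM), Dgkh (6.41, 4.04 to 8.33 RPKM), Dgki (5.18, 4.21 to 6.01 RPKM) and Dgkq (4.02, 3.31 to 5.02 RPKM) were the lowest, and each overlapped its neighbours in this order. This order depends on the exon length used, which joins all annotated exons of a gene and was 7189 bases for Dgkq and 2808 for Dgka. In CPM, Dgkq averaged 33.5 in WT, beside 33.8 for Dgki, 28.6 for Dgka and 25.4 for Dgkh. A further kinase gene, Dgkk, had between 21 and 28 reads per library and is not among the 9.

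**Figure D1:**
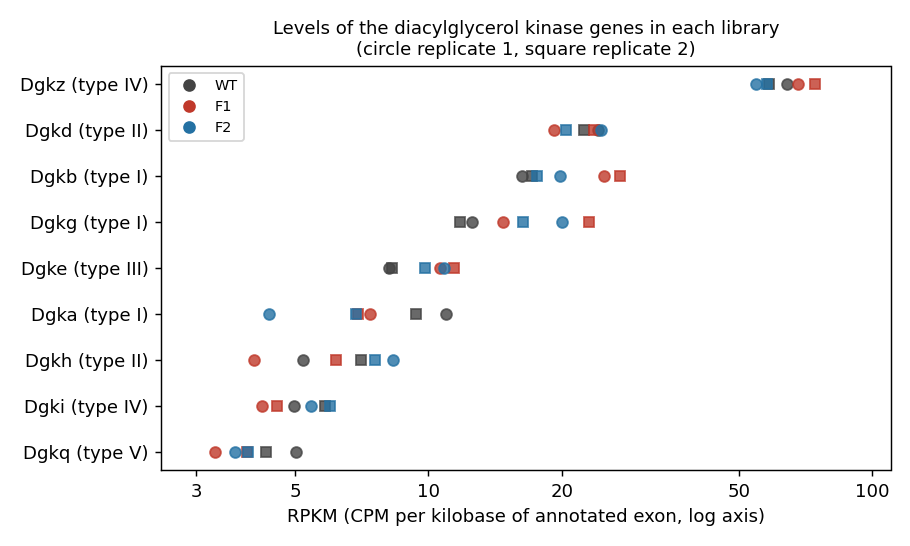
Level of each diacylglycerol kinase gene in RPKM (CPM per kilobase of annotated exon, log axis) in the 6 libraries, with circles for replicate 1 and squares for replicate 2 of WT (grey), F1 (red) and F2 (blue). Dgkz lies apart from the others, between 54.7 and 74.2 RPKM, and Dgkq is lowest, between 3.31 and 5.02 RPKM.

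Type IV kinases made up the largest share of the summed level of the 9 genes, with 45.7% and 44.5% in the WT libraries, 46.3% and 43.5% in F1, and 39.6% and 43.6% in F2. Type I kinases came next, with 26.2% and 26.5% in WT, 30.0% and 31.5% in F1, and 29.1% and 27.9% in F2, so that every F1 and F2 library was above both WT libraries. The type II share was 19.3% and 20.4% in WT, 14.9% and 16.5% in F1, and 21.7% and 19.1% in F2. The type III share was 5.39% and 5.72% in WT, 6.79% and 6.32% in F1, and 7.15% and 6.72% in F2. That of type V was 3.32% and 2.98% in WT, 2.11% and 2.16% in F1, and 2.42% and 2.68% in F2. Every F1 and F2 library was thus above both WT libraries for type III too, and below both for type V. Type I joins members that moved in different directions, with Dgka lower and Dgkb and Dgkg higher than in WT in every F1 and F2 library. For single genes such separation was common, since 60.4% of all tested genes did not overlap WT in F1 and 63.0% did not in F2. These shares are parts of one total and were not tested.

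In F1, 3 of the 9 kinases, Dgkb, Dgke and Dgkg, rose against WT, and in F2 Dgka fell. Expression in each group was compared with WT by the exact test of edgeR with Benjamini-Hochberg adjustment over all tested genes, and a gene was called at an adjusted p under 0.01. Both comparisons use the same 2 WT libraries. The p-values rest on the spread between libraries of a group, estimated for each gene over all 3 groups with information shared across genes. This spread may be in part technical. The 3 of 9 members called in F1 stand beside 12.3% of all tested genes called, of which 3.77% were higher and 8.54% lower. In F2, the 1 member called stands beside 12% of all genes, with 3.86% higher and 8.10% lower, so the share of members called there was close to the background. At an adjusted p under 0.05, 4 members passed in F1 (20.8% of all genes) and 3 in F2 (20.7% of all genes). The libraries of F1 did not overlap those of WT for 7 members, as for 60.4% of all genes, and those of F2 did not for 7 members, as for 63.0% of all genes. The median absolute log2 fold change of the members was 0.37 in F1 and 0.30 in F2, beside 0.25 and 0.26 over all tested genes. Dgkb alone was called between F2 and F1, beside 0.740% of all genes in either direction and 0.436% in its own, the lower one, and 1.32% at an adjusted p under 0.05. The F2 and F1 libraries did not overlap for 5 members, as for 39.1% of all genes. In this bulk tissue, fewer cells of a type and less RNA per cell cannot be told apart.

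**Figure D2:**
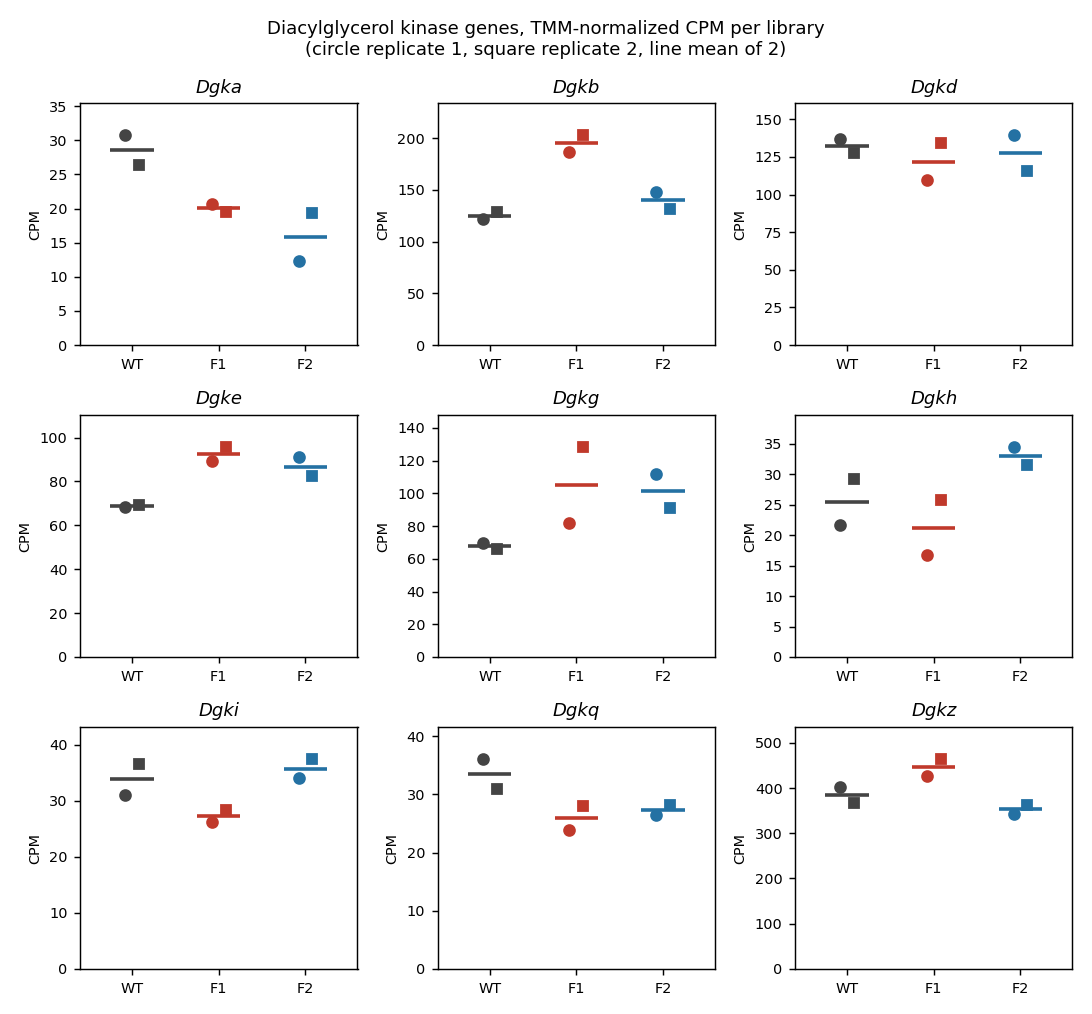
TMM-normalized CPM of the 9 diacylglycerol kinase genes in each library, in a panel per gene with its own axis from 0, with circles for replicate 1, squares for replicate 2 and a line at the mean of the 2. Dgkb was highest in both F1 libraries (186 and 203 CPM), Dgke and Dgkg were higher in all F1 and F2 libraries than in both WT libraries, and Dgka was lower in all of them.

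Of the type I kinases, Dgkb, a neuronal kinase found at the membrane of dendritic spines, was at 122 and 128 CPM in WT, 186 and 203 CPM in F1, and 148 and 132 CPM in F2. Both F1 libraries were above all other libraries, and F2 replicate 2 was only just above the WT libraries. Expression was 1.56-fold that of WT in F1 (log2 fold change 0.64 ± 0.12 SE, adjusted p = 3.09e-06). In F2 the log2 fold change was 0.16 ± 0.12 SE (adjusted p = 0.359). The direct comparison of F2 with F1 gave a log2 fold change of -0.48 ± 0.12 SE with an adjusted p of 0.00873. The F1 call held under every alternative test and scaling tried (adjusted p at most 0.00461) and without any single library (log2 fold change from 0.59 to 0.71). The difference between F2 and F1 was no longer called without any single one of the 6 libraries, the adjusted p then lying between 0.0132 and 0.342 and the log2 fold change between -0.56 and -0.40.

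Dgkg, another calcium-binding kinase of neurons, was at 69.9 and 65.8 CPM in WT, 82.0 and 128 CPM in F1, and 112 and 91.4 CPM in F2. All 4 libraries of F1 and F2 were above both WT libraries, and the F1 libraries were far apart from each other. The log2 fold change was 0.63 ± 0.18 SE in F1 (1.55-fold, adjusted p = 0.00489) and 0.58 ± 0.18 SE in F2 (1.50-fold, adjusted p = 0.0109), where it just missed the threshold. The F2 and F1 libraries overlapped, with a log2 difference of -0.05 and a 95% interval, from its SE, of -0.40 to 0.30. The F1 change fell to 0.28 on the log2 scale without F1 replicate 2 (adjusted p = 0.255), and it also missed the threshold without WT replicate 1 (0.68, adjusted p = 0.0403) or WT replicate 2 (0.60, adjusted p = 0.0737). The F2 change passed it without F1 replicate 1 (0.59, adjusted p = 0.000105) or F1 replicate 2 (0.59, adjusted p = 8.13e-05), fits that keep all F2 and WT libraries. It was 0.43 without F2 replicate 1 (adjusted p = 0.248), 0.63 without WT replicate 1 (adjusted p = 0.0679) and 0.55 without WT replicate 2 (adjusted p = 0.102).

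Dgka, known best from T cells, where it limits Ras signalling, was at 30.8 and 26.3 CPM in WT, 20.7 and 19.5 CPM in F1, and 12.3 and 19.3 CPM in F2. All 4 libraries of F1 and F2 were below both WT libraries, and F2 replicate 1 was lowest. Expression in F2 was 0.552 times that in WT (log2 fold change -0.86 ± 0.20 SE, adjusted p = 0.000291). In F1 the log2 fold change was -0.51 ± 0.19 SE with an adjusted p of 0.0472, above the threshold. The F2 and F1 libraries did not overlap, with a log2 difference of -0.35 ± 0.20 SE and an adjusted p of 0.664. Without F2 replicate 1 the F2 change was -0.56 (adjusted p = 0.0677), and without WT replicate 1 it was -0.73 (adjusted p = 0.0349). Dgka shares 98 bases of exon, 3.49% of its own, with Pmel on the other strand, a gene with between 9 and 37 reads per library. The library kit does not mark strand, so reads there cannot be assigned to one of them. Dgke, Dgkg and Dgkz likewise share 1.19%, 1.33% and 3.51% of their exon bases with opposite-strand genes of at most 29 reads per library.

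The type II kinases did not pass the test in any comparison. Dgkd, a kinase linked to signalling of the epidermal growth factor receptor, was at 137 and 128 CPM in WT, 109 and 134 CPM in F1, and 139.7 and 116 CPM in F2. Its groups overlapped in every comparison, and the 95% intervals of its log2 differences from WT were -0.39 to 0.15 in F1 and -0.32 to 0.22 in F2. Dgkh, whose human counterpart has been studied in bipolar disorder, was at 21.6 and 29.2 CPM in WT, 16.7 and 25.7 CPM in F1, and 34.5 and 31.5 CPM in F2. Both F2 libraries were above all other libraries. The log2 fold change was -0.26 ± 0.20 SE in F1 (adjusted p = 0.392), 0.38 ± 0.20 SE in F2 (adjusted p = 0.182) and 0.64 ± 0.20 SE for F2 against F1 (adjusted p = 0.0932). The last of these was 0.98 without F1 replicate 2, past the threshold (adjusted p = 0.000515), and 0.36 without F1 replicate 1 (adjusted p = 0.827).

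The type III kinase Dgke, which feeds the phosphatidylinositol cycle, had replicates close to each other. It was at 68.4 and 69.3 CPM in WT, 89.2 and 95.8 CPM in F1, and 91.0 and 82.5 CPM in F2. All 4 libraries of F1 and F2 were above both WT libraries, and F1 and F2 overlapped. The log2 fold change was 0.43 ± 0.12 SE in F1 (1.34-fold, adjusted p = 0.00325) and 0.33 ± 0.12 SE in F2 (1.26-fold, adjusted p = 0.0278, above the threshold). The log2 difference of F2 from F1 was -0.09, with a 95% interval of -0.32 to 0.14. The F1 change kept its size but missed the threshold without WT replicate 1 (0.42, adjusted p = 0.0555), WT replicate 2 (0.45, adjusted p = 0.0318) or F1 replicate 2 (0.38, adjusted p = 0.0533).

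The type IV kinases, which end in a motif that binds PDZ domains, did not pass the test either. Dgkz, the most highly expressed member and a partner of the postsynaptic scaffold PSD-95, was at 402 and 367 CPM in WT, 428 and 465 CPM in F1, and 343 and 363 CPM in F2. The F1 libraries were the highest and the F2 libraries the lowest, with no overlap between groups. The log2 fold changes were 0.21 ± 0.12 SE in F1 (adjusted p = 0.19), -0.12 ± 0.12 SE in F2 (adjusted p = 0.507) and -0.34 ± 0.12 SE for F2 against F1 (adjusted p = 0.162). Dgki was at 31.1 and 36.6 CPM in WT, 26.3 and 28.4 CPM in F1, and 34.0 and 37.5 CPM in F2. Its F1 libraries were the lowest, and its F2 libraries overlapped those of WT. The log2 fold changes were -0.31 ± 0.14 SE in F1 (adjusted p = 0.113), 0.08 ± 0.14 SE in F2 (adjusted p = 0.756) and 0.39 ± 0.14 SE for F2 against F1 (adjusted p = 0.233).

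The type V kinase Dgkq, which binds active RhoA, was at 36.1 and 30.9 CPM in WT, 23.8 and 28.0 CPM in F1, and 26.4 and 28.3 CPM in F2. All F1 and F2 libraries were below both WT libraries. The log2 fold changes of -0.37 ± 0.15 SE in F1 (adjusted p = 0.0595) and -0.30 ± 0.15 SE in F2 (adjusted p = 0.153) did not pass the threshold. Dgkq shares 1078 bases, 15.0% of its exons, with Tmem175 on the other strand, which had between 742 and 1260 reads per library. It shares a further 124 bases, 1.72%, with Idua, at 245 to 426 reads per library, and reads over both stretches cannot be assigned to one gene.

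**Figure D3:**
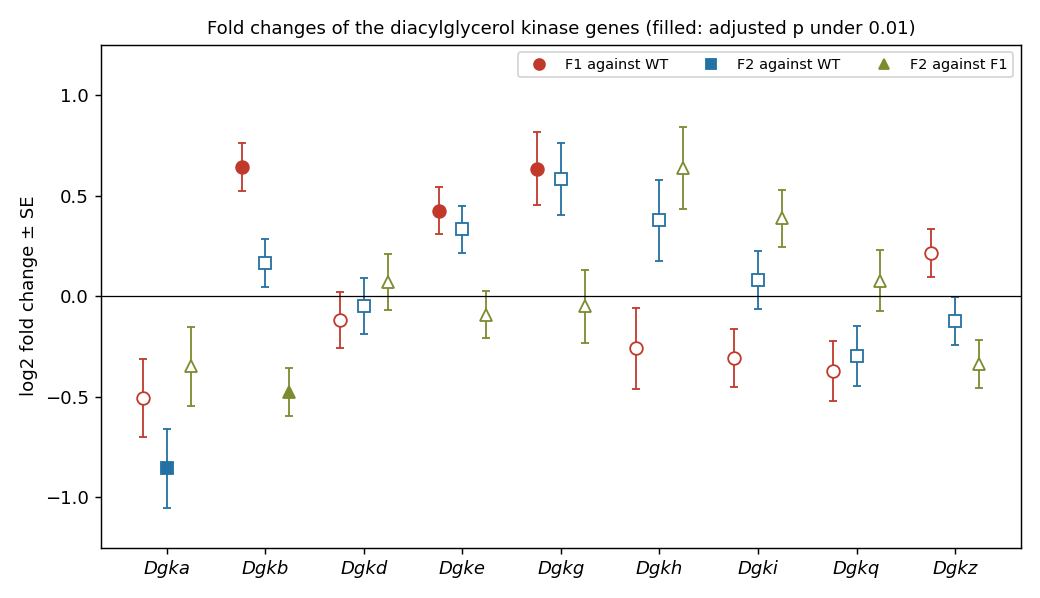
Log2 fold change ± SE of the 9 diacylglycerol kinase genes for F1 against WT (red circles), F2 against WT (blue squares) and F2 against F1 (green triangles), with filled symbols for an adjusted p under 0.01. Filled symbols are those of Dgkb, Dgke and Dgkg in F1 (0.64, 0.43 and 0.63), of Dgka in F2 (-0.86) and of Dgkb for F2 against F1 (-0.48).

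The choice of test decided several of these calls. With the quasi-likelihood test of edgeR, which allows for uncertainty in the spread of each gene, Dgkb was the member called in F1 (adjusted p = 0.00211), while Dgke (0.0145) and Dgkg (0.0308) missed the threshold with unchanged fold changes. By that test the adjusted p of Dgka in F2 was 0.0108 and that of Dgkb between F2 and F1 was 0.097, so that none of the 9 was called in either comparison. With an unadjusted p under 0.05, 4 members passed in each of these comparisons by the quasi-likelihood test, beside 33.2% of all genes in F2 against WT and 9.01% in F2 against F1. With DESeq2, the F1 calls were the same 3 genes, and Dgkg joined Dgka in F2 (adjusted p = 0.00686).

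Beside the kinases, 58 other genes of diacylglycerol and phosphatidic acid metabolism and signalling were examined, all of which were tested. In F1, 5 of them rose and 5 fell, and in F2, 5 rose and 5 fell, which is 17.2% in either comparison beside 12.3% and 12% of all genes. The median log2 fold change of the 58 genes was 0.13 in F1 and 0.09 in F2, beside 0.0094 and -0.00035 over all tested genes. In both F1 and F2, 7 of the 58 genes were called in the same direction, beside 7.67% of all genes, and none of the 9 kinases was at this threshold. At an adjusted p under 0.05 in both, 3 kinases (Dgka, Dgke and Dgkg) passed with the same direction, beside 13.6% of all genes. At an unadjusted p under 0.05 by the exact test they were 4, with Dgkq, beside 22.2% of all genes.

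Among the 20 genes whose products release diacylglycerol, 2 fell in F1, while 1 rose and 2 fell in F2. Plcg1, the phospholipase C activated by receptor tyrosine kinases, fell in F1 (log2 fold change -0.65, adjusted p = 0.000506) and F2 (-0.71, adjusted p = 0.000138). Its relative Plcg2 fell by 0.61 on the log2 scale in both (adjusted p = 0.00636 and 0.00646). Ppap2b, a phosphatidic acid phosphatase that works in the direction opposite to the kinases, had the highest level of the list at 54.0 RPKM. It rose in F2 (0.54, adjusted p = 0.000925), and its log2 fold change in F1 was 0.25 (adjusted p = 0.179).

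Among the 7 other genes that consume diacylglycerol, 1 rose and 1 fell in F1, and 1 fell in F2. Dgat1, an acyltransferase that turns diacylglycerol into triglyceride, fell in F1 (-0.79, adjusted p = 2.04e-05) and F2 (-0.82, adjusted p = 1.05e-05). Dgat2, which catalyses the same step and had the highest level of the list at 63.8 RPKM, showed a log2 fold change of 0.34 in F1 (adjusted p = 0.0366) and 0.35 in F2 (adjusted p = 0.0268). Among the 12 other makers and users of phosphatidic acid, 1 rose in F1 and 2 rose in F2. Agpat3, an acyltransferase of phosphatidic acid synthesis, rose in F1 (0.45, adjusted p = 0.00117) and F2 (0.37, adjusted p = 0.00948). Cds2, which turns phosphatidic acid into the precursor of phosphatidylinositol and had the highest level of its list at 50.7 RPKM, rose in F2 (0.53, adjusted p = 8.49e-05), with 0.28 in F1 (adjusted p = 0.0615).

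Among the 19 effectors of diacylglycerol, 3 rose and 2 fell in F1, and 2 rose and 2 fell in F2. The Munc13 genes, which prime synaptic vesicles for release, changed in different directions. Unc13a fell in F1 (-0.55, adjusted p = 0.000233) and F2 (-0.60, adjusted p = 4.95e-05), and Unc13b fell in F1 (-0.92, adjusted p = 1.73e-08) and F2 (-1.18, adjusted p = 2.5e-13). Unc13c, at 1.26 RPKM a low one, rose in F1 (1.00, adjusted p = 8.92e-05) and F2 (1.38, adjusted p = 1e-08). Chn1, a chimaerin with the highest level of the list at 276 RPKM, showed a log2 fold change of 0.21 in F1 (adjusted p = 0.178) and -0.03 in F2 (adjusted p = 0.893).

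Prkca, the protein kinase C alpha gene, which the rule for naming genes did not select and which was chosen after its values were seen, was the effector called between F2 and F1. It was at 136 and 133 CPM in WT, 181 and 196 CPM in F1, and 123 and 135 CPM in F2. As for Dgkb, both F1 libraries were above all others. The log2 fold change was 0.48 in F1 (adjusted p = 0.000562), -0.06 in F2 (adjusted p = 0.766) and, when F2 was compared directly with F1, -0.55 (adjusted p = 0.000721). At an adjusted p under 0.05, 4 of the 58 genes differed between F2 and F1, beside 1.32% of all genes, and all 4 were effectors lower in F2, namely Prkca, Prkcb, Prkcc and Rasgrp1. These 4 were singled out after their values were seen.

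**Figure D4:**
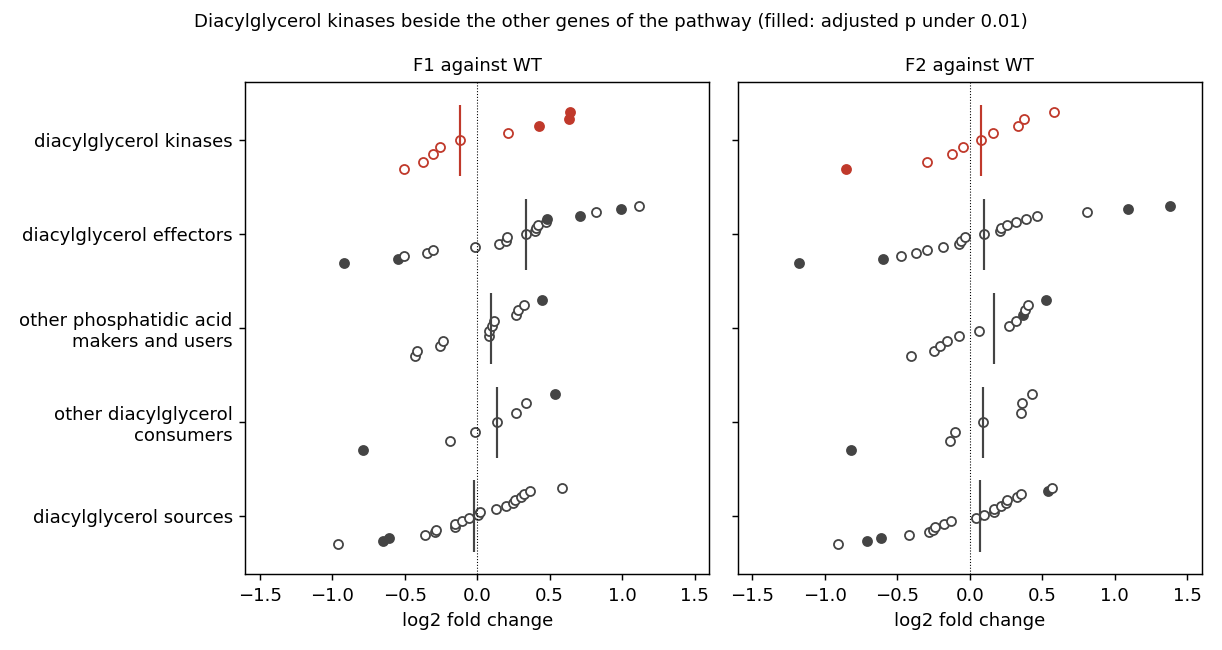
Log2 fold change against WT in F1 (left) and F2 (right) of the 9 diacylglycerol kinase genes (red) and of the 58 other genes of the pathway in 4 lists (grey), with a point per gene, filled for an adjusted p under 0.01, and a vertical line at the median of the list. Both panels share the WT libraries. Filled points lie above 0 for 3 kinases in F1 and below 0 for 1 kinase in F2, and the effectors have filled points on both sides of 0 in either panel.

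For the 2 members with the largest mean of the F1 and F2 changes, the genes with the most similar pattern over the 6 libraries were looked up among the 11609 genes that averaged 5 CPM or more. For Dgka they were Stard5 (Pearson r = 0.997), Surf2 (0.995) and Zfyve28 (0.994), and for Dgkg they were Kif3b (0.998), Senp5 (0.998) and Cog5 (0.993). With 6 libraries in 3 groups such values are common, and 287 genes for Dgka and 732 genes for Dgkg had an r above 0.9.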

How the data were processed

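RNA-Seq was analysed in 6 libraries, grouped by the labels, and the 12 bisulfite sequencing samples of the series were not analysed here. The authors aligned single-end 50-base reads to mm9 with TopHat and deposited raw read counts for each gene, made by HTSeq (intersection-strict). This mode drops reads that reach outside exons or lie wholly in exons of several genes. The strand setting and the annotation used for counting are not given in the sources used here. Reads on no annotated feature and other special categories were kept out of library sizes. Those on no feature made up 12.6% and 14.2% of records in WT, 9.84% and 9.18% in F1, and 10.2% and 11.6% in F2. Both WT libraries were thus above all F1 and F2 libraries. Records without a unique alignment made up 25.1% to 33.2%. The part of these differences in the changes against WT was not tested. The number of libraries, rather than depth, limits the precision.

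Genes were filtered with filterByExpr, scaled by TMM and compared by the exact test in edgeR 4.0.16, with tagwise dispersion estimated over the 3 groups (common dispersion 0.0113, a coefficient of variation of 10.6% between libraries). Standard errors were derived from a gene's mean counts and its tagwise dispersion. The methods name edgeR with tagwise dispersion and not which of its tests. RPKM used GENCODE M1 exon lengths, which matched 32955 symbols. The procedure was also run on simulated counts with the common dispersion for every gene and 2-fold changes. This is simpler than the real data, so it does not show how well the smaller changes of the members are found. Alternatives were the quasi-likelihood and likelihood-ratio tests of edgeR, also with a block for the replicate number, DESeq2 1.42.0, other scalings, filters and dispersions, leaving out each library in turn, and a threshold of 0.05. A likelihood-ratio test without the block and one with crossed F2 numbers were chosen after seeing the data.

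The genes named are the 9 kinases, the pathway genes called with the same sign for F1 and F2 and the one with the highest level of each list, the 3 genes most similar to each of the 2 members with the largest mean change, and Htr1a. The members and lists were chosen with earlier results of these data known. The study itself lists Dgka and Dgke among the genes differentially expressed in both F1 and F2. Its results give a threshold of 0.01 and its methods 0.05. By the exact test used here, Dgka was called in F2 alone and Dgke in F1 alone at 0.01. Both genes passed in both comparisons at 0.05. The study also reports a differentially methylated region of Dgke shared by F1 and F2, with enhancer-like activity in a reporter assay. It further reports reduced phosphatidic acid in granule cells, significant in F2 alone. Neither the methylation nor the lipid data were examined here.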

Additional observations from a re-analysis of the deposited data

Results flagged for a closer look

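The effects of F1 and F2 against WT differed for Dgkb and for Prkca, by the direct comparison of F2 with F1 in edgeR. For Dgkb the log2 fold change of F2 against F1 was -0.48 (adjusted p = 0.00873), lower in 2 of 2 F2 libraries than in both F1 libraries. For Prkca it was -0.55 (adjusted p = 0.000721), again lower in 2 of 2 F2 libraries. Both genes were flagged by this same comparison, so the order of their libraries is no further support. How the Prkca difference depends on the processing was not examined. The call of Dgkb was lost without any single library, as given above.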

How the results depend on the processing

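Outside the fits that left out a library, none of the 324 fold changes of single members reversed. By the threshold of each setting, 303 kept their side, 14 no longer passed and 7 newly did. The setting with a threshold of 0.05 reuses the main fit, so its fold changes, counted among the 324, could not reverse. Dgka in F1 and Dgke and Dgkg in F2 newly passed there only through the looser threshold. In F1, 1 of the 9 kinases (Dgkb) was called by the quasi-likelihood test and by either the quasi-likelihood or the likelihood-ratio test that included the replicate block. In F2, 0 were called by the quasi-likelihood test with or without the replicate block (4 at an unadjusted p under 0.05 in either), 2 by DESeq2 or with dispersion from the 2 groups compared, and 3 at a threshold of 0.05. Between F2 and F1, 0 were called by the quasi-likelihood test, with either replicate block, by scaling to library totals alone, without a filter on low counts or with dispersion from the 2 groups (4 at an unadjusted p under 0.05 in each). Of the 58 pathway genes, 4 in F1 and 3 in F2 were called by the quasi-likelihood test with the replicate block, 6 in F2 by that test without it, and 17 and 18 at a threshold of 0.05. Leaving out 1 library gave 1 to 3 members in F1, 0 to 2 in F2 and 0 to 1 between F2 and F1, and 2 to 12 and 3 to 14 pathway genes in F1 and F2, where an arm with 1 library is assumed to vary like the others. The log2 fold change then changed sign for Dgkd (-0.27 to 0.0337) and Dgkh (-0.59 to 0.02985) in F1, Dgkd (-0.18 to 0.0843) and Dgki (-0.0279 to 0.21) in F2, and Dgkd (-0.0729 to 0.23), Dgkg (-0.34 to 0.31) and Dgkq (-0.0399 to 0.20) between F2 and F1. The cause of these differences was not tested. The deviations of same-numbered libraries had correlations of -0.03 (WT and F1), -0.08 (WT and F2) and -0.18 (F1 and F2) across genes. Whether same-numbered libraries share a batch is not stated in the sources used here, and these correlations cannot settle it. With crossed F2 numbers in the block, chosen after seeing the data, 3, 2 and 2 members were called in F1, F2 and F2 against F1. Apart from the exact test and the unadjusted quasi-likelihood counts given above, no share of all genes called was taken for these settings. The counts therefore show how the calls vary with the setting and are not results about the kinases.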
